A study of Mus musculus with 6 samples.

Results

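Mxi1, Tead2, Pknox1, Gse1 and Pagr1a encode transcription factors and chromatin cofactors whose isoform use differed between organoids given BMP2 and organoids given vehicle. These genes were chosen by name, for their roles, from the authors' deposited table of isoforms whose use changed, so their usage changes, q-values and levels are a description and support nothing by themselves. The table lists 7 isoforms for the 5 genes, out of 302 isoforms of 202 genes. The cultures were mouse duodenal crypt organoids, small intestinal epithelium grown as closed cysts with crypt buds, of wild-type C57BL/6 genotype in both groups. One group of 3 libraries was given vehicle and the other group of 3 libraries was given BMP2 at 100 ng/ml, on day 6 of culture and for 24 h. Whether the 3 libraries of a group came from separate cultures or animals is not stated, so a q-value measures only the spread between these libraries, which may be technical. The deposited values are means per condition, with no value per library and no depth, so no standard deviation can be given. Every usage, q and TPM below comes from the authors' deposited table or was computed from it.

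Mxi1 binds Max, the partner of Myc, and the Mxi1-Max pair sits on the same E-box sites as Myc-Max while recruiting Sin3 corepressors through the amino-terminal end of Mxi1. Tead2 is one of the TEAD factors that carry the Hippo pathway coactivators Yap1 and Wwtr1 to DNA, and Pknox1 (also called Prep1) is a TALE homeobox factor that pairs with Pbx proteins. Gse1 is a coiled-coil protein found with the CoREST and HDAC corepressors, and Pagr1a is a partner of Paxip1 in the MLL3 and MLL4 histone methyltransferase complexes, which mark enhancers. BMP signalling rises from crypt to villus in the intestine and goes with the maturation of enterocytes.

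Usage is the percent of all transcripts of a gene that belong to one isoform. All 7 isoforms passed a q of 0.05 and a usage difference of 10 percentage points, which holds for 100% of the isoforms listed and therefore says nothing particular about these genes. Usage rose with BMP2 for 2 of the 7, Mxi1-201 and Gse1-201, and fell for the other 5, Mxi1-203, Tead2-201, Pknox1-209, Gse1-202 and Pagr1a-202. Over all listed isoforms usage rose for 45%. The absolute difference ranged from 16.4 to 64.4 points with a median of 40.5 points, against a median of 20.15 points over the 302. It was over 20 points for 5 of the 7 isoforms, against 50.7% of all listed, and the q was under 0.01 for 6 of the 7, against 73.5%. All 7 isoforms are annotated as protein-coding, as are 79.1% of the 297 listed isoforms that could be matched to the annotation.

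**Figure D1:**
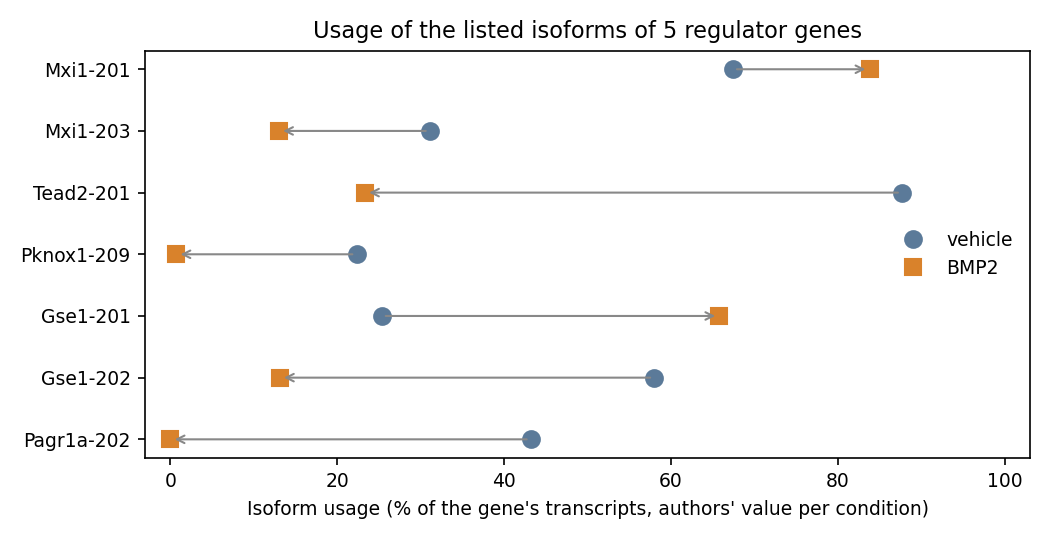
Isoform usage as a percent of the gene's transcripts (x axis) for the 7 listed isoforms (y axis), with 1 value per condition from the authors' deposited table (circles, vehicle; squares, BMP2) and arrows from vehicle to BMP2. Mxi1-201 and Gse1-201 lie further right in BMP2 and the other 5 lie further left, with the longest arrow for Tead2-201, from 87.7% to 23.3%.

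Mxi1 was the most abundant of the 5 genes and changed the share of its first exons. Mxi1 lies on chromosome 19 at 53310518 to 53375810, plus strand (GRCm38). Usage of Mxi1-201 was 67.4% in vehicle and 83.8% in BMP2, and that of Mxi1-203 was 31.1% and 13.0%. The authors' deposited table gives q = 6.48e-09 for the rise and q = 6.12e-11 for the fall. Mean abundance of Mxi1-201 was 40.8 TPM (transcript abundance scaled to the total of a library) in vehicle and 148 TPM in BMP2, a ratio of 3.62. That of Mxi1-203 was 18.9 and 22.6 TPM, a ratio of 1.20. The isoform that lost usage was thus at a slightly higher mean abundance in BMP2, which was also so for 33 of the 166 isoforms with a usage loss in the whole table.

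The listed Mxi1 isoforms make different amino-terminal ends and the same remainder. Mxi1-201 begins with an exon of 456 bases at 53310518 to 53310973, and Mxi1-203 begins 18895 bases downstream with an exon of 308 bases at 53329413 to 53329720. Both then use the same 4 later introns, and their annotated 3′ ends lie 139 bases apart. The coding sequence has 885 bases (295 codons) in Mxi1-201 and 684 bases (228 codons) in Mxi1-203, of which 611 bases are shared. The coding bases of the first exon, which carry the difference, are printed below in capitals, from the start codon and 5′ to 3′, with the next 24 coding bases, common to both, in lower case. They lie on chromosome 19, plus strand (GRCm38), at 53310700 to 53310973 for Mxi1-201 and at 53329648 to 53329720 for Mxi1-203, followed by 53331351 to 53331374.
Mxi1-201: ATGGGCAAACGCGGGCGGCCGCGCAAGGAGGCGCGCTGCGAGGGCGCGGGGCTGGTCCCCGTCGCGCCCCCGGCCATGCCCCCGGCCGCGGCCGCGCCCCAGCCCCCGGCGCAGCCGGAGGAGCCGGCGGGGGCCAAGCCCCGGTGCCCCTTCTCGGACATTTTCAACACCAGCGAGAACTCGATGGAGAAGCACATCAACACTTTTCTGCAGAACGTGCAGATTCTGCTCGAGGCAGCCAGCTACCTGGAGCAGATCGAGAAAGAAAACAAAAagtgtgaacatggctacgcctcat
Mxi1-203: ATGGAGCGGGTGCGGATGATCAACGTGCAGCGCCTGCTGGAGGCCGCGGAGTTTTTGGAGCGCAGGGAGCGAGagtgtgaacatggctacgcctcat
The first exon supplies 274 coding bases in Mxi1-201 and 73 in Mxi1-203, and both leave the shared remainder in the same reading frame. Each Mxi1 isoform shares 194 exonic bases with Gm10197 on the opposite strand, 7.38% of Mxi1-201 and 8.29% of Mxi1-203, all in exons that both isoforms use.

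Because the isoforms start 18895 bases apart, each has its own upstream sequence. The 250 bases before the matching RefSeq starts, from the GRCm38.p6 table, are shown to set the starts side by side. They cover chr19:53310256-53310505 for Mxi1-201, whose RefSeq start is 12 bases before the annotated one, and chr19:53329163-53329412 for Mxi1-203, both on the plus strand. Capitals mark GGCGCC, the GC-rich element through which Smad1 and Smad5 bind known BMP target genes.
Mxi1-201 upstream: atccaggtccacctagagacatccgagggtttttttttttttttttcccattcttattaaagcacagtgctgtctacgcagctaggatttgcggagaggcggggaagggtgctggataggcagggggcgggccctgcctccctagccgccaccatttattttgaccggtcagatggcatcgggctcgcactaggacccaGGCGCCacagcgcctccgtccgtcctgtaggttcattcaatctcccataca
Mxi1-203 upstream: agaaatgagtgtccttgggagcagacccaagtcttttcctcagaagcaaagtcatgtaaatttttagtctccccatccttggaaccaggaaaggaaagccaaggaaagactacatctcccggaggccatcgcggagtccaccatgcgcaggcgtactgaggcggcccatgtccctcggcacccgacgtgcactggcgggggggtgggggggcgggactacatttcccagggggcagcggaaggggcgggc
GGCGCC was found 1 time upstream of Mxi1-201, starting 51 bases before the RefSeq start, and 0 times upstream of Mxi1-203. It is its own reverse complement, so both strands were covered, and it occurs in 9.59% of 32851 mouse windows of the same length. CACGTG, the E-box to which Mxi1 and Myc bind with Max and likewise its own reverse complement, was found 0 times in both and occurs in 6.02% of the windows. GC content was 55.2% and 60.0%, with 13 CG pairs in each, against medians of 52.4% and 6 pairs over all windows. Motif counts are given only for these windows, out of 3 for Mxi1, and not for the windows of Gse1, Tead2 and Pagr1a. No pattern over the genes can therefore be read from them. A match of letters is a description of the sequence and not a binding site.

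**Figure D2:**
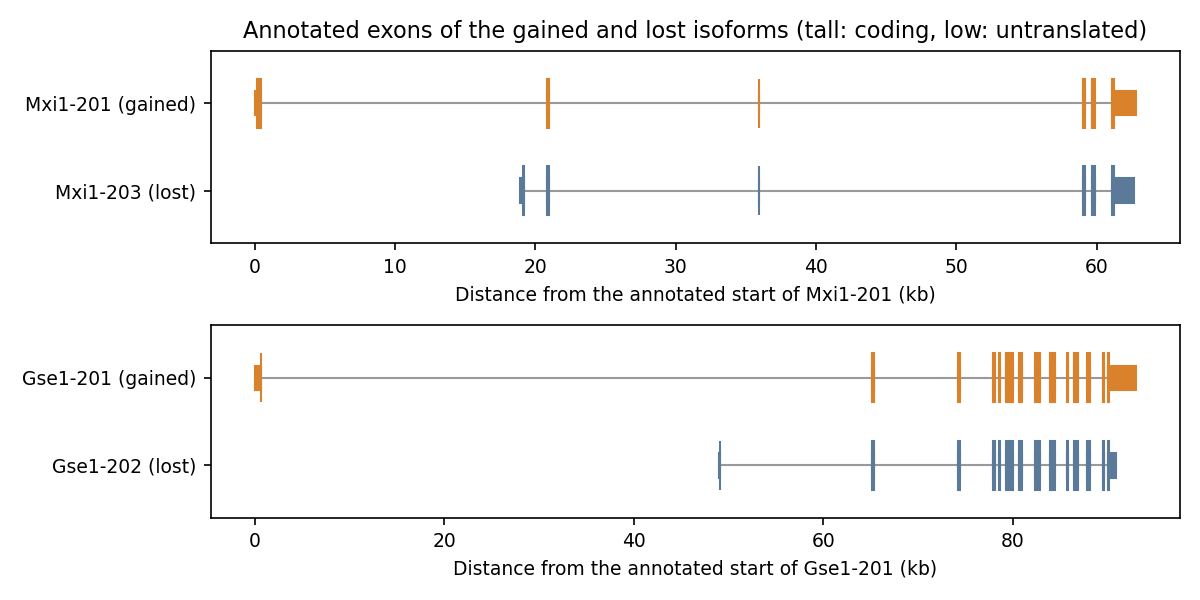
Annotated exons of the isoform that gained and the isoform that lost usage in Mxi1 (top) and Gse1 (bottom), to scale along the distance in kb from the start of the upstream isoform; tall boxes are coding and low boxes untranslated. In both genes the first exons lie apart, with starts 18895 and 48982 bases from each other, and the later introns coincide.

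Gse1 showed the same arrangement at a much lower level. Gse1 lies on chromosome 8 at 120228456 to 120581390, plus strand (GRCm38). Gse1-201 was used at 25.3% in vehicle and 65.8% in BMP2 and Gse1-202 at 58.0% and 13.1%, and the authors' deposited table gives q = 1.74e-06 and q = 5.91e-07 for these changes. The most used listed isoform was Gse1-202 in vehicle and Gse1-201 in BMP2, and the isoforms not listed made up 16.7% and 21.1%. Mean abundance was 1.34 and 5.81 TPM for Gse1-201, a ratio of 4.33, and 3.14 and 1.16 TPM for Gse1-202. The first exon of Gse1-201 is 705 bases at 120488447 to 120489151. That of Gse1-202 is 134 bases at 120537429 to 120537562 and starts 48982 bases downstream of the start of Gse1-201. The later 14 introns are shared. The coding sequence is 3669 bases in Gse1-201 and 3639 bases in Gse1-202, a difference of 10 codons at the amino-terminal end. The coding starts are printed to show how small that difference is, 5′ to 3′ with the bases of the first exon in capitals and the first 24 bases of the shared exon in lower case (chromosome 8, plus strand, GRCm38; 120489115 to 120489151 and 120537556 to 120537562, followed by 120553584 to 120553607).
Gse1-201: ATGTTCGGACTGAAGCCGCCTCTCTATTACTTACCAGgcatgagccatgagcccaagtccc
Gse1-202: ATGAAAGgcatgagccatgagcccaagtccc
The first exon gives 37 coding bases in Gse1-201 and 7 in Gse1-202.

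The Gse1 isoforms also differ at the other end, where Gse1 meets a neighbour. The last exon is 2922 bases in Gse1-201 and 858 bases in Gse1-202. Its untranslated part runs into Gins2, a replication gene on the opposite strand, which shares 2758 exonic bases with Gse1-201 (38.7% of the isoform) and 694 with Gse1-202 (15.4%). Gins2-203, an isoform of that neighbour, moved in the same direction as Gse1-201 in the authors' deposited table, at 0.2% of Gins2 transcripts in vehicle and 54.2% in BMP2, or 0.065 and 2.82 TPM. The other listed isoform, Gins2-204, went the other way, from 55.2% to a listed 0 and from 15.4 TPM to a listed 0. The implied level of Gins2 as a whole was lower in BMP2, at 27.9 and 5.21 TPM. With sequences cut into short words (explained below), 2728 of 3632 words of Gins2-203 (75.1%) also occur in other genes. Gse1-201 has the same number of words in Gins2, whereas Gins2-204 has 0 words in other genes. Without a stated strand setting, reads of the 2 genes cannot be told apart in the shared sequence. For that reason the rise of Gins2-203 cannot be read as separate from that of Gse1-201. The values of both Gse1 isoforms are therefore uncertain, and the part of the overlap in their changes was not tested. The first exon of Gse1-202, 134 bases, lies whole within 1700016A09Rik on the opposite strand, where the same limit holds.

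An exchange of the first exon with all later introns shared was not the common arrangement. Of 87 genes in the table with a gained and a lost isoform in the annotation, the first exons lay apart in 53 (60.9%), and 7 genes (8.05%) shared every later intron as well. These 7 were Mxi1, Gse1, Elovl1, Ptpn6, Scoc, Tmem86b and Twnk. Each gene entered with a single gained and lost pair, and further pairs in genes with more listed isoforms were left out. The gained isoform started upstream of the lost one in 5 of the 7, Mxi1 and Gse1 included. It started upstream in 21 of the 53 genes whose first exons lay apart. Since the genes were chosen from the same table, these counts are a description without a test.

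Tead2-201 had the widest usage difference of the 7 isoforms and ranked 5 of 302. Tead2 lies on chromosome 7 at 45215753 to 45233644, plus strand (GRCm38). Usage of Tead2-201 fell from 87.7% to 23.3%. The authors' deposited table gives it q = 0.0122, the weakest of the 7 and at rank 228 of 302. It stood at 7.94 TPM with vehicle and at 0.242 TPM with BMP2. The level of the whole gene, obtained by dividing the TPM of its listed isoforms by the fraction they make up, was 9.06 TPM with vehicle and 1.04 TPM with BMP2. By this estimate, the Tead2 isoforms that are not listed held 1.11 TPM in vehicle and 0.796 TPM in BMP2. On the same scale, Tead2-201 went from 7.94 to 0.242 TPM, and the rest of Tead2 from 1.11 to 0.796 TPM, which is 0.318 TPM lower. With 1 listed isoform, the division cannot be checked within Tead2. For Gse1 in vehicle it gave 5.3 TPM from Gse1-201 and 5.41 TPM from Gse1-202, a gap that rounding of the fractions does not cover. The estimates for Tead2 are therefore uncertain. The abundance of Tead2-201 was 32.8 times lower in BMP2, a log2 ratio of -5.04. With 1 TPM added to both means this log2 ratio was -2.85.

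The annotation holds 16 further Tead2 isoforms, 8 of them protein-coding. One of these, Tead2-203, has the same coding exons as Tead2-201, with 1335 coding bases in each, and starts with an exon of 1599 bases at 45215852 to 45217450, most of which is the first intron of Tead2-201 (45215833 to 45217212). Another, Tead2-202, lacks 105 coding bases. Which of the 16 made up the other 76.7% of Tead2 transcripts in BMP2 was not analysed here, so the values do not say whether the encoded protein differed. The implied gene level behind the BMP2 usage was 1.04 TPM, at an unknown depth.

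Pknox1-209 was a minor isoform of its gene that was close to 0 in BMP2. Pknox1 lies on chromosome 17 at 31564734 to 31607693, plus strand (GRCm38). Usage of Pknox1-209 fell from 22.3% to 0.7%, for which the authors' deposited table gives q = 2.24e-09. Its mean TPM was 2.06 with vehicle and 0.0307 with BMP2. The implied gene level was 9.23 and 4.38 TPM. Rounding of the fraction 0.007 alone allows a BMP2 level from 4.09 to 4.72 TPM. It rests on 1 listed isoform, and a mismatch of fraction and mean TPM, as seen for Gse1, could place it outside that range. By this estimate the isoforms not listed held 7.17 and 4.35 TPM, so most Pknox1 RNA was in other isoforms in both conditions.

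Pknox1-209 is an incomplete model. It has 426 bases in 4 exons, its end is annotated as not found, and it holds 57 coding bases, against 1308 in the full-length Pknox1-202. Its second exon (31581804 to 31582042, untranslated) ends 8 bases before that of Pknox1-202, and of its 396 words of 31 bases 323 also occur in Pknox1-202. Its first exon, 73 bases, lies whole within the antisense gene AC166172.4.

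Pagr1a-202 was listed at 0 in BMP2, and nearly all of its sequence also belongs to another annotated gene. Pagr1a lies on chromosome 7 at 127015033 to 127017352, minus strand (GRCm38). Usage of Pagr1a-202 fell from 43.2% to a listed 0, and the authors' deposited table gives this change q = 7.43e-20, the smallest of the 7. The mean TPM was 3.32 with vehicle and 1.65e-06 with BMP2. A gene level of 7.69 TPM could be derived for vehicle and none for BMP2. Pagr1a-202 holds the full coding sequence of 759 bases, while the other annotated isoforms, Pagr1a-201 and Pagr1a-203, hold 273 and 405 coding bases. On the same strand, 1412 of its 1430 bases are also exonic in Gm42742, and the model Gm42742-205 consists of those 1412 bases and no other sequence. Pagr1b also overlaps Pagr1a-202 on the same strand, with 347 shared exonic bases. Gm42742 and Pagr1b are annotated as genes of their own, and their abundance was not analysed here. The Pagr1a-202 values are therefore uncertain, and the part of this overlap in the listed 0 was not tested.

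How far an isoform can be told from other transcripts was measured by cutting its sequence into words of 31 bases, the default word length of kallisto, and looking each up, on both strands, in all annotated mouse transcripts. Mxi1-201 had the largest part of its own, with 456 of 2597 words (17.6%) in no other transcript. Gse1-201 had 702 of 7097 (9.89%), Pknox1-209 had 27 of 396 (6.82%), Tead2-201 had 47 of 2110 (2.23%) and Mxi1-203 had 45 of 2310 (1.95%). Gse1-202 had 27 of 4462 words (0.605%) and Pagr1a-202 had 18 of 1400 (1.29%). The median over the 297 matched isoforms was 7.01%, and 48 of them had no word of their own. Words shared with transcripts of other genes made up 98.7% of Pagr1a-202, 38.4% of Gse1-201, 17.2% of Gse1-202, 11.4% of Pknox1-209, 8.35% of Mxi1-203, 7.43% of Mxi1-201 and 0.237% of Tead2-201, against a median of 0.719%. Of Pagr1a-202, 1382 of the 1400 words are found in Gm42742 transcripts. Mxi1-201 is thus the isoform with the largest share of sequence of its own, and Pagr1a-202 differs from Gm42742-205 by 18 words.

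**Figure D3:**
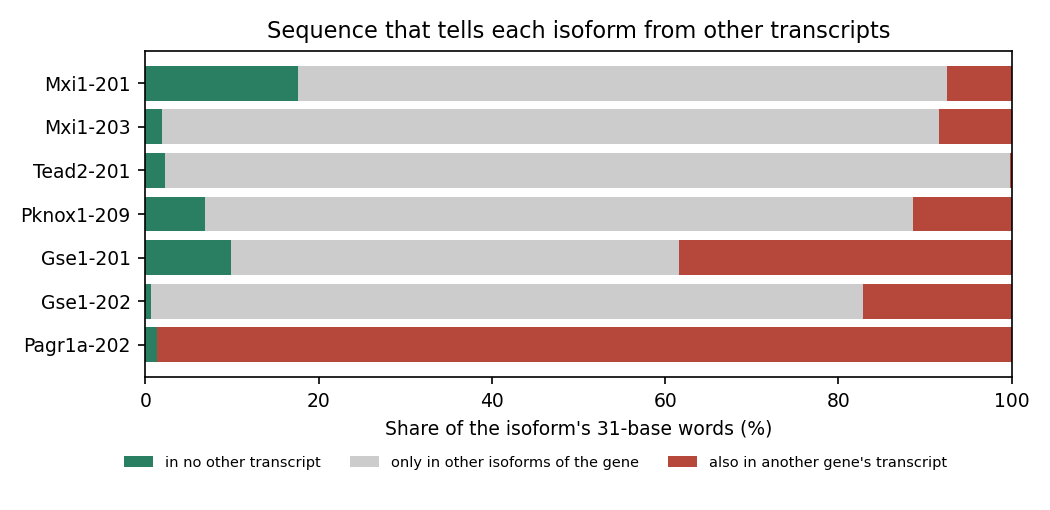
Share of each isoform's 31-base words (x axis, percent) found in no other annotated transcript (green), only in other isoforms of the same gene (grey) or also in a transcript of another gene (red). Mxi1-201 has the largest green part, 17.6%, and Pagr1a-202 is red over 98.7% of its length.

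The level of the whole gene differed in direction among the 4 genes with a level in both conditions, which leaves out Pagr1a. The Mxi1 level was 60.6 TPM with vehicle and 176 TPM with BMP2, a log2 ratio of 1.54, and Gse1 at 5.38 and 8.83 TPM, a log2 ratio of 0.71. Tead2 had a log2 ratio of -3.13 and Pknox1 of -1.08, with a range from -1.18 to -0.97 that rounding alone allows. The levels of Tead2 and Pknox1 rest on 1 listed isoform each and cannot be checked against another. Over 2-fold higher was 1 of the 4 genes with a level in both conditions, against 11.3% of 195 genes in the table, and over 2-fold lower were 2 of the 4, against 31.8%. Among the isoforms, mean TPM was over 2-fold higher in BMP2 for 2 of 7 (24.8% of all listed) and over 2-fold lower for 4 of 7 (34.1%). With 4 genes these shares are a description only, and no test across libraries was possible.

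**Figure D4:**
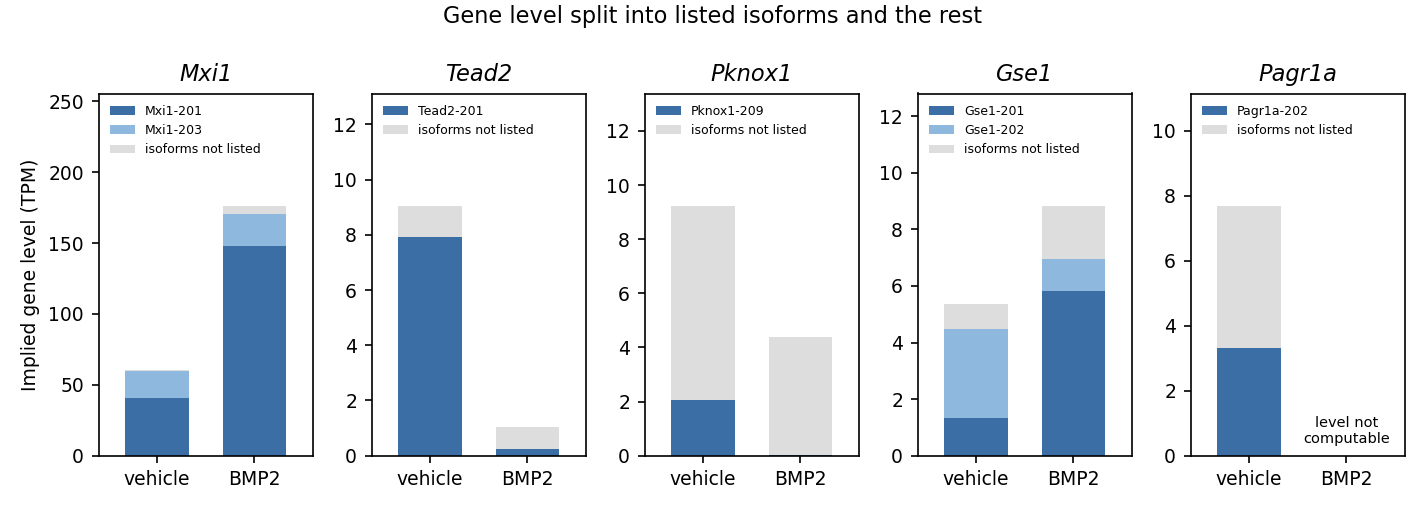
Implied gene level in TPM (y axis, a separate scale per gene) in vehicle and BMP2, split into the TPM of each listed isoform (blue) and the remainder held by isoforms not listed (grey); bars are the authors' means per condition with no error available. Mxi1 goes from 60.6 to 176 TPM with most of the added height in Mxi1-201, whereas Tead2 loses nearly all of Tead2-201 and keeps a grey part of 1.11 and 0.796 TPM.

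**Figure D5:**
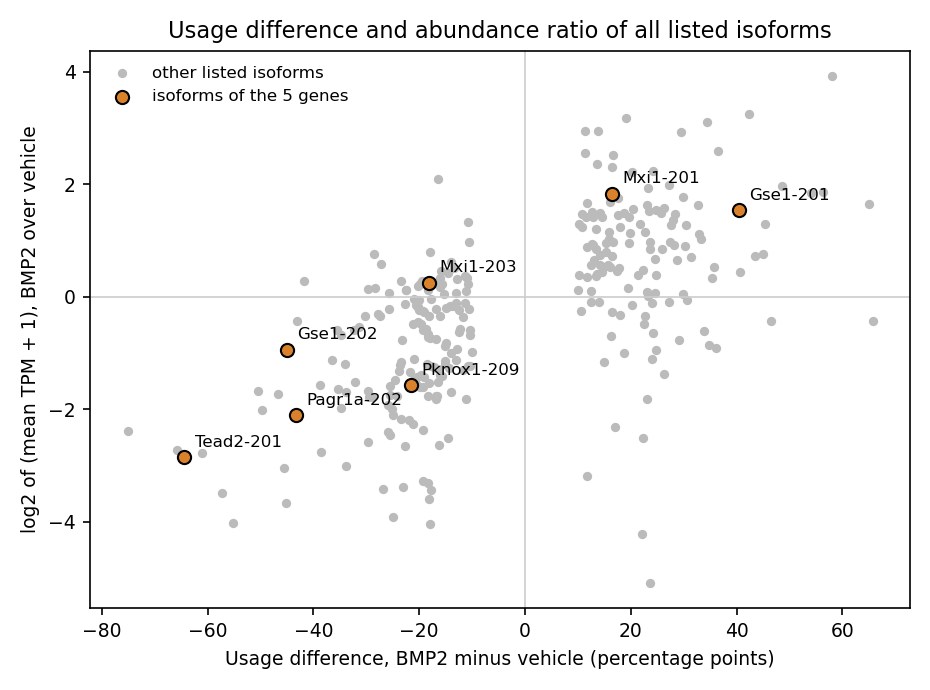
Usage difference in percentage points (x axis, BMP2 minus vehicle) against the log2 ratio of mean TPM plus 1 (y axis, BMP2 over vehicle) for the 302 listed isoforms, with those of the 5 genes in orange. Mxi1-203 is the only orange point with a lower usage and a ratio above 0, and Tead2-201 lies lowest and furthest left of the 7.

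Few genes of the lists for these pathways were in the table, and each list holds a gene that was itself chosen from the table. How many of the list genes were expressed or tested by the authors was not analysed here, so these counts say nothing particular about the pathways. The table held 1 of 13 genes of the Myc and Max network (Mxi1), 1 of 23 of the Hippo pathway and TEAD factors (Tead2), 1 of 12 TALE homeobox factors (Pknox1) and 1 of 10 genes of the MLL3 and MLL4 complexes (Pagr1a). Of 17 CoREST and HDAC partners it held 2, Gse1 and the corepressor Rcor3. Rcor3-201, a protein-coding isoform, rose from 4.3% to 23.9% of its gene's transcripts (q = 4.46e-05, authors' deposited table), at 0.471 and 2.92 TPM, while the gene level was 11.0 and 12.2 TPM. None of 27 intestinal transcription factors, 16 markers of intestinal epithelium or 12 markers of mesenchyme, immune cells, endothelium and neurons was in the table. The use of their isoforms and the identity of the tissue by its markers were therefore not analysed here. In bulk RNA, fewer cells of a type and less RNA per cell cannot be told apart, which applies to every level given above.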

How the data were processed

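Bulk RNA sequencing of 6 libraries (3 vehicle, 3 BMP2) was quantified with kallisto 0.46.1 on mm39, per the submitters' processing notes. The deposited isoform fractions, the usage differences and the q-values are the authors', and TPM values are the authors' means per condition, per the file headers. The column names are those of IsoformSwitchAnalyzeR. For the statistical test, the strand setting, the filters and the annotation release, the sources used here give nothing. Depth is unknown and TPM keeps no trace of it.

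Members and gene lists were chosen with earlier results of these data known. All isoforms listed for the members are named, with every list gene that the table holds. Usage is 100 times the fraction. Gene level is summed TPM divided by summed fraction. The 7 isoforms were matched by stable identifier to GENCODE M21 (GRCm38), whose versions are 1 step lower, so exon ends may differ from the authors' models. No coordinate was converted. Sequences come from GENCODE M21 transcripts and from RefSeq windows (GRCm38.p6), which held Mxi1, Gse1, Tead2 and Pagr1a and were printed for Mxi1. Python 3.11.15, numpy 2.4.6 and pandas 2.3.3 were used, and the functions were tested on simulated data. In those data TPM was set to level times fraction, so they do not test levels where deposited fractions and mean TPM differ. Alternatives were a q of 0.01, a difference of 0.2, a level of 5 TPM, a pseudocount of 1 TPM, the most used isoform alone, and overlap on the same strand.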

Additional observations from a re-analysis of the deposited data

How the results depend on the processing

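With a gene level of at least 5 TPM required in both conditions, 4 of the 7 isoforms were left, those of Mxi1 and Gse1. At a q under 0.01 Tead2-201 dropped out and 6 were left, and at a difference over 0.2 both Mxi1 isoforms dropped out and 5 were left. With a pseudocount of 1 TPM, 1 gene in place of 2 was over 2-fold lower, because Pknox1 went to a log2 ratio of -0.93. That pseudocount also moved Gse1-202 from -1.44 to -0.94. No level or mean TPM changed direction under the alternatives run. Over 5% of exonic bases were shared with other genes by 6 of the 7 isoforms on either strand and by 1, Pagr1a-202, on the same strand. No paired analysis was possible because the deposited table holds means per condition and no value per library, and leaving out a library was not run for the same reason.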
